A study of Mus musculus with 8 samples.

Results

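Hox genes are the members whose symbol consists of Hox, a cluster letter from a to d and a number. All 39 of them were found among the 24639 gene entries of each count list, 11 in the Hoxa, 10 in the Hoxb, 9 in the Hoxc and 9 in the Hoxd cluster. They were measured in primary mouse mesangial cells (MMC), the contractile cells that hold the capillary loops of the kidney glomerulus, grown from sieved and pooled glomeruli of C57BL/6J mice in RPMI medium with serum and without treatment. WT MMC came from wild-type mice and miR-379KO MMC from mice in which CRISPR-Cas9 nickase had removed part of the microRNA miR-379. RNA was sequenced as total RNA and as AGO2-IP, the RNA recovered with beads against AGO2, an Argonaute protein of the microRNA silencing complex. Genotype and assay together made 4 groups, each with 2 replicates, A and B. The labels do not say whether A and B came from separate mice or cultures, so the p-values measure the spread between these samples, which may be technical. The age and sex of the animals were not given in the labels.

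Hox genes encode homeodomain transcription factors that give cells their position along the body axis. Within a cluster the genes stand in the order of the regions they pattern, from anterior paralog groups (low numbers) at the 3′ end to posterior groups (high numbers) at the 5′ end, and members with the same number in different clusters are paralogs. Adult fibroblasts, smooth muscle cells and other mesenchymal cells keep much of the Hox pattern of the place they came from. In the kidney, paralog groups 10 and 11 are known for their roles in the stroma and in the nephron-forming mesenchyme.

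The Hox clusters also carry microRNA genes, whose products are known to pair with Hox transcripts. They are shown because counts in AGO2-IP bear on microRNA pairing. Mature sequences are from RefSeq (GRCm38.p6), 5′ to 3′, and the capitals mark the seed, bases 2 to 8. The genes of miR-10a and miR-10b lie in the Hoxb and Hoxd clusters, those of miR-196a in the Hoxb and Hoxc clusters, that of miR-196b in the Hoxa cluster and that of miR-615 in the Hoxc cluster, whereas miR-379 lies on chromosome 12.
miR-10a-5p: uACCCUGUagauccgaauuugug
miR-10b-5p: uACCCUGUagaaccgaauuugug
miR-196a-5p: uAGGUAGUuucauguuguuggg
miR-196b-5p: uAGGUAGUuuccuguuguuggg
miR-615-3p: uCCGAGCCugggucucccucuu
miR-379-5p: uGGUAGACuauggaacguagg
The members of the miR-10 pair share their seed, as do those of the miR-196 pair.

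The letters that pair with each seed were searched on the sense strand of the longest annotated 3′-UTR of each gene. A 3′-UTR was found for 38 of the 39 Hox genes and for 19140 entries in all. ACAGGGT, the match to miR-10, was present in 4 Hox genes, among them Hoxa3, Hoxb3 and Hoxd1, and in 11.2% of all 3′-UTRs. ACTACCT, the match to miR-196, was present in 8, among them Hoxa4, Hoxa5, Hoxa9, Hoxb1, Hoxb6, Hoxb7 and Hoxc8, and in 5.50% of all. GGCTCGG, the match to miR-615-3p, was present in Hoxb4 and in 2.18% of all. A match is a description of the letters and not a bound site. Only exact matches were counted, so a site with any other letter in the seed was missed. The sites below span the length of the microRNA, are written 5′ to 3′ on the transcript strand in GRCm38.p6, and carry the seed match in capitals. The first 3 are the miR-196 matches of Hoxc8, the member with the most of them, and the next 2 are the miR-10 matches of Hoxa3 and Hoxb3.
Hoxc8, chr15:102992976-102992997, plus strand: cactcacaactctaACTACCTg
Hoxc8, chr15:102993733-102993754, plus strand: taaatctttaacatACTACCTa
Hoxc8, chr15:102993871-102993892, plus strand: cagcgtattttatcACTACCTa
Hoxa3, chr6:52169653-52169675, minus strand: actctttgataagaaACAGGGTa
Hoxb3, chr11:96347287-96347309, plus strand: tgacttaacgtgaaaACAGGGTa

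Total RNA libraries held 17168230 to 22660743 gene counts. AGO2-IP libraries held 1115782 to 1875037 counts once the ribosomal RNA entry Rn45s and Lars2 were left out, so a Hox gene rested on far fewer reads there. Hox genes took 0.0485% to 0.0637% of the remaining counts in total RNA and 0.0644% to 0.0707% in AGO2-IP. The targeted gene, Mir379 (chromosome 12, 109709060 to 109709125, plus strand), had 0 counts in every total RNA library and 0, 4, 1 and 0 counts in WT A, WT B, miR-379KO A and miR-379KO B AGO2-IP, too few to check the labels. Of 10 mesangial or pericyte markers, 7 reached a level of 1 CPM (counts scaled to a common library size) in every total RNA library, and their summed level was 11561 to 14685 CPM. The summed level was 218 to 541 CPM for 6 podocyte markers, 3123 to 6195 CPM for 5 fibroblast markers, led by the collagen Col1a1, 1.49 to 3.30 CPM for 6 endothelial markers and 1.82 to 4.27 CPM for 5 macrophage markers. The 7 tubular epithelium markers summed to 2.80, 47.9, 27.1 and 9.75 CPM in WT A, WT B, miR-379KO A and miR-379KO B, with Umod at 0 counts.

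In total RNA, MMC expressed Hox genes from all 4 clusters. Summed over the clusters, the levels were highest in paralog groups 9 and 10 and fell away beyond them. Levels are given as CPM scaled with TMM factors, and between genes as CPM per kb of annotated exon. Of the 39 members, 29 reached 1 CPM in every library of both genotypes, 9 of 11 in Hoxa, 8 of 10 in Hoxb, 7 of 9 in Hoxc and 5 of 9 in Hoxd. By paralog group these were 3 of 5 members of groups 1 and 2, 12 of 13 of groups 3 to 6, all 12 of groups 7 to 10 and 2 of 9 of groups 11 to 13. Groups 7 to 10 made up 70.0% of the summed CPM per kb of all Hox genes, between 67.0% and 71.7% in the single libraries, and groups 3 to 6 made up 23.7%, between 20.2% and 28.3%. Groups 11 to 13 made up 2.22%. The Hoxc cluster held 36.2% of the sum, Hoxb 31.6%, Hoxa 22.8% and Hoxd 9.51%. Their highest members were Hoxc10, Hoxb9, Hoxa10 and, at 8.98 CPM per kb, Hoxd8, so the peak was not the same in each cluster. Because a poly(A) kit was used, levels per kb compare members only roughly.

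**Figure D1:**
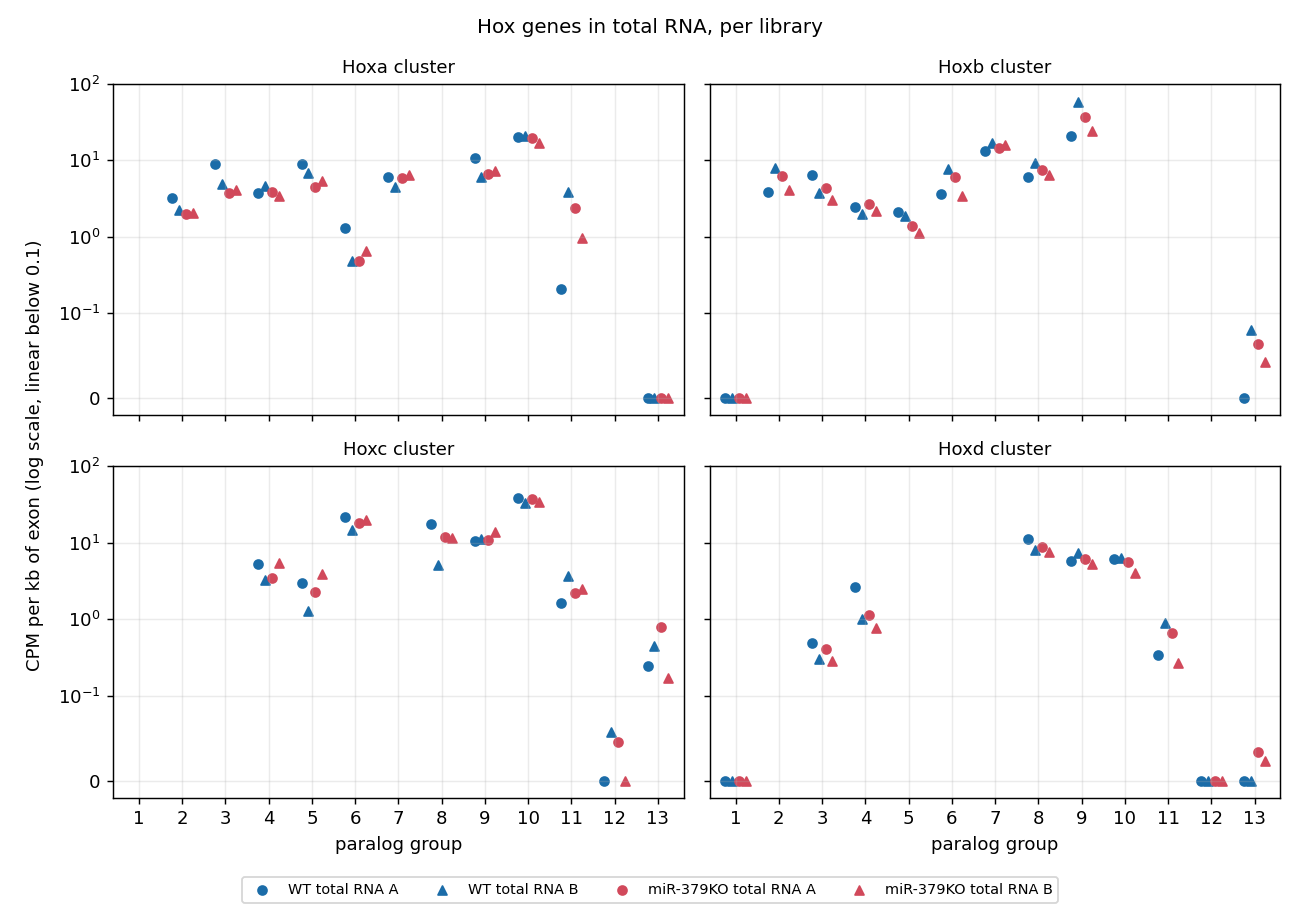
Level of the Hox genes reported here in the 4 total RNA libraries, by cluster (panels) and paralog group (x axis), as CPM per kb of exon on an axis that is logarithmic above 0.1 and linear below it. Blue marks WT and red miR-379KO, circles replicate A and triangles replicate B. Summed over the clusters, levels were highest in paralog groups 9 and 10, and they were low or at 0 in groups 12 and 13.

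The highest levels per kb belonged to Hoxc10, at 35.8 CPM per kb (range 33.5 to 38.7) over the 4 total RNA libraries, and Hoxb9, at 35.0 CPM per kb (range 20.6 to 58.3). Hoxa10 followed at 19.1 CPM per kb (range 16.7 to 20.4), Hoxc6 at 18.6 CPM per kb (range 14.9 to 21.5) and Hoxb7 at 15.0 CPM per kb (range 13.2 to 16.7). Hoxc9, Hoxc8, Hoxd8, Hoxa9 and Hoxb8 completed the first 10, between 7.26 and 11.6 CPM per kb. Of the 34 pairs of neighbours in the order of the 35 members with counts, 32 overlapped in the range of their libraries, and the exceptions were the steps from Hoxb9 to Hoxa10 and from Hoxd3 to Hoxb13. The order of Hox levels was similar between total RNA libraries, with a Spearman rho over the 39 genes of 0.91 between the WT replicates and 0.98 between the miR-379KO replicates. These coefficients share the very different mean levels of the genes and are given as a description.

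The values of single members follow in CPM in the order WT A, WT B, miR-379KO A and miR-379KO B total RNA. Among the anterior groups 1 and 2, which pattern the hindbrain and the pharyngeal arches, Hoxa2 (GRCm38.p6, chromosome 6, 52162417 to 52164831, minus strand) had 5.73, 4.0, 3.57 and 3.64 CPM. Hoxb2 had 6.32, 13.0, 10.1 and 6.58 CPM. Hoxb1 and Hoxd1, of group 1, had no count in any total RNA library. With a floor of 3 counts per library, their absence there allows at most 0.179 CPM in the library with the smallest scaled depth, for counting error only. The genotypes overlapped for Hoxb2, whereas both miR-379KO values of Hoxa2 lay below its WT values.

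Group 3 genes are known for the thymus and parathyroid (Hoxa3) and the neck vertebrae. Hoxa3 (chromosome 6, 52169062 to 52213067, minus strand) had 23.0, 12.6, 9.44 and 10.3 CPM, Hoxb3 had 23.9, 13.8, 16.3 and 11.2 CPM and Hoxd3 (chromosome 2, 74711993 to 74748271, plus strand) had 1.43, 0.876, 1.17 and 0.822 CPM, so Hoxd3 stayed just under 1 CPM in both B libraries. The annotated spans of Hoxa3 and Hoxd3 run over neighbouring members, but no Hox gene shared a curated exon base with another entry. In group 4, Hoxa4 had 5.79, 7.12, 5.87 and 5.29 CPM, Hoxb4, known for the expansion of blood stem cells, had 6.32, 5.04, 6.87 and 5.52 CPM, Hoxc4 had 10.3, 6.51, 6.91 and 10.9 CPM and Hoxd4 had 6.80, 2.57, 2.87 and 2.0 CPM. Hoxd4 was high in WT A alone, and the genotypes overlapped for each of these 4 genes. In group 5, Hoxa5, which is needed for lung formation, had 16.8, 12.6, 8.35 and 10.0 CPM, Hoxb5 had 4.0, 3.50, 2.61 and 2.11 CPM and Hoxc5 had 8.11, 3.50, 6.13 and 10.7 CPM. Both miR-379KO values lay below both WT values for Hoxa3, Hoxa5 and Hoxb5. In group 6, Hoxa6 had 2.92, 1.09, 1.09 and 1.47 CPM, Hoxb6 had 5.07, 10.8, 8.57 and 4.88 CPM and Hoxc6 had 34.2, 23.6, 29.2 and 31.5 CPM. Hoxc6 was the most abundant of groups 3 to 6 per kb, and Hoxa6 the least abundant after Hoxd3.

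Groups 7 to 9 pattern the trunk. Hoxa7 had 11.8, 8.65, 11.3 and 12.3 CPM and Hoxb7, whose regulatory DNA is widely used to drive genes in the ureteric bud, had 16.8, 21.2, 18.3 and 20.1 CPM. Hoxb8 had 16.0, 24.3, 19.5 and 17.0 CPM, Hoxc8 (chromosome 15, 102990539 to 102994254, plus strand) had 41.4, 12.1, 28.0 and 27.2 CPM and Hoxd8 had 24.5, 17.4, 19.3 and 16.4 CPM. The Hoxc8 value of WT B was less than those of the other 3 libraries. Hoxa9, known from blood stem cells and leukaemia, had 34.6, 19.7, 21.1 and 23.1 CPM, Hoxb9 (chromosome 11, 96271330 to 96276595, plus strand) had 55.7, 158, 99.4 and 65.0 CPM, Hoxc9 had 18.4, 19.4, 18.4 and 23.9 CPM and Hoxd9 had 12.3, 15.7, 12.8 and 11.2 CPM. Hoxb9 was highest in WT B and next in miR-379KO A. Group 10, which prevents rib formation in the lumbar spine and acts in the renal stroma had similar values in all 4 libraries for its abundant members, as Hoxa10 (chromosome 6, 52231197 to 52240854, minus strand) had 63.0, 64.1, 60.4 and 52.5 CPM, Hoxc10 (chromosome 15, 102966796 to 102971898, plus strand) had 74.0, 64.1, 70.4 and 65.7 CPM and Hoxd10 had 11.3, 11.5, 10.4 and 7.52 CPM. The miR-379KO values of Hoxa10 and Hoxd10 lay below the WT values, by less than 2-fold in each pair of libraries.

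Group 11, whose members act together in the mesenchyme that forms the nephrons, marked the edge of the expressed range. Hoxa11 (chromosome 6, 52242105 to 52245810, minus strand) had 8, 159, 124 and 37 counts, or 0.477, 8.70, 5.39 and 2.17 CPM, so that WT A held almost none. Hoxc11 had 1.49, 3.34, 2.0 and 2.29 CPM and Hoxd11 (chromosome 2, 74679558 to 74687016, plus strand) had 1.43, 3.72, 2.83 and 1.12 CPM. Hoxa11 and Hoxd11 were both higher in WT B and miR-379KO A than in WT A and miR-379KO B. Groups 12 and 13, which pattern the digits, the genital tubercle and the tail, were close to silent. Hoxc13 had 10, 20, 45 and 7 counts, Hoxb13 had 0, 2, 2 and 1 counts, Hoxc12 had 0, 1, 1 and 0 counts and Hoxd13 had 0, 0, 2 and 1 counts. Hoxa13 and Hoxd12 had 0 counts in all 4 libraries.

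Between the replicates of a genotype, Hox genes varied by more than the typical gene. For 32 Hox genes that passed the filter on low counts, the median absolute log2 ratio of replicate B to A was 0.63 in WT and 0.28 in miR-379KO, compared to 0.40 and 0.22 for all 12321 genes tested and 0.39 and 0.22 for the 9659 genes in the count range of the Hox genes. A difference of 2-fold or more between the WT replicates was seen for 10 of 32 Hox genes (31.3%), compared to 11.5% of all genes tested and 10.9% of those in the same count range. They were Hoxa11, Hoxb2, Hoxb6, Hoxb9, Hoxc11 and Hoxd11, higher in WT B, and Hoxa6, Hoxc5, Hoxc8 and Hoxd4, higher in WT A. Between the miR-379KO replicates there were 3 (9.38%, compared to 6.23% of all genes tested), Hoxa11, Hoxc13 and Hoxd11, each higher in A. With 1 pair of libraries per genotype, these shares describe the libraries and were not tested.

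The replicate differences of the genotypes tended to point opposite ways. The log2 ratio of B to A had the opposite sign in WT and miR-379KO in 20 of 32 Hox genes (62.5%), compared to 43.7% of all genes tested. Of these, 11 were higher in B of WT and in A of miR-379KO and 9 the reverse. The Pearson coefficient between the genotypes over the 32 genes was −0.58 and the Spearman coefficient −0.48, compared to −0.23 and 0.10 over all genes tested. The points share their 4 libraries, so this is a description. Hoxa11 had the largest gap between the genotypes, with ratios of 4.03 in WT and −1.28 in miR-379KO on the log2 scale with 1 count added, followed among genes with opposite signs by Hoxc13 and Hoxd11. The transcript antisense to Hoxa11, Hoxa11os, had 4, 80, 39 and 20 counts in the same order of libraries and was likewise lowest in WT A.

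Some markers of several cell types moved with these genes, and others of the same lists did not. The tubular epithelium marker Lrp2, an endocytic receptor, had 24, 472, 298 and 127 counts and Cdh16, a kidney cadherin, had 9, 368, 304 and 21 counts in WT A, WT B, miR-379KO A and miR-379KO B, while Epcam, Aqp2 and Umod had at most 2. The summed level of the 7 tubular markers, given above, was highest in WT B and next in miR-379KO A, as for Hoxa11, Hoxd11, Hoxb9, Hoxb6 and Hoxb2. The tubular markers Slc12a1, with 11, 19, 17 and 13 counts, and Cdh1, with 3, 14, 3 and 5, did not share this order. Pax2, a factor of the nephron lineage, had 58, 692, 513 and 81 counts, but Wt1, of the same list, was lowest in WT B (1566, 527, 1554 and 906 counts). Of the mesangial or pericyte markers, Des had 1801, 14442, 5000 and 2252 counts and Rgs5 had 75, 311, 257 and 50. Cald1, of that list, was highest in WT A, at 4132 CPM. The part of other cell types in the replicate differences of Hox genes was not tested, and fewer cells of a type and less RNA per cell cannot be told apart in bulk samples.

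To ask whether loss of miR-379 altered Hox expression, miR-379KO MMC were compared to WT MMC in total RNA. No Hox gene passed an adjusted p of 0.05 in edgeR's quasi-likelihood test, and nor did any of the 12321 genes tested (0%). At an unadjusted p under 0.05 there were 2 of 32 Hox genes, compared to 91 genes in all (0.739%), and DESeq2 called 0 as well. The 2 were Hoxa3, with a log2 fold change of −0.85 ± 0.34 (SE, adjusted p = 0.9997), and Hoxa5, with −0.68 ± 0.28 (SE, adjusted p = 0.9997). The median log2 fold change was −0.21 over the 32 Hox genes and −0.01 over all genes tested, and 9 of the 32 were above 0. The largest estimates were −0.94 ± 0.55 (SE, adjusted p = 0.9997) for Hoxd4 and 0.53 ± 0.49 (SE, adjusted p = 0.9997) for Hoxc5, so none reached 2-fold. The genotypes' libraries did not overlap for 6 of 32 Hox genes, all lower in miR-379KO (Hoxa2, Hoxa3, Hoxa5, Hoxa10, Hoxb5 and Hoxd10), compared to 19.0% of all genes without overlap and 9.07% without overlap and lower. The SE of the log2 fold changes ran from 0.21 (Hoxa10) to 1.17 (Hoxa11) on the log2 scale.

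**Figure D2:**
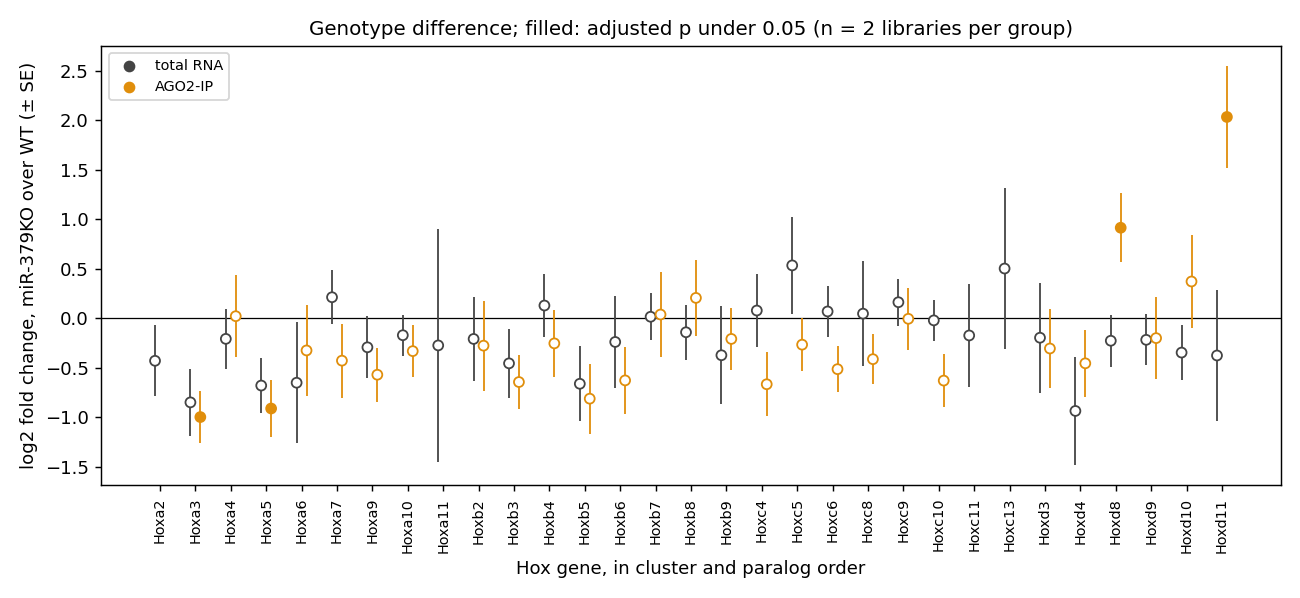
Log2 fold change of miR-379KO over WT for the Hox genes reported here, in total RNA (grey) and in AGO2-IP (orange) where tested, with the SE (2 libraries per group). Filled points passed an adjusted p of 0.05, which none did in total RNA and 4 did in AGO2-IP (Hoxa3, Hoxa5, Hoxd8 and Hoxd11). Hoxd11 passed the filter on low counts in AGO2-IP only through miR-379KO, so its filled point is not read as a difference.

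Counts in AGO2-IP were read against those that silent genes gave. The 4804 autosomal protein-coding genes that had 0 counts throughout total RNA gave 1.40, 0.945, 3.19 and 3.63 counts per kb of exon in WT A, WT B, miR-379KO A and miR-379KO B AGO2-IP, a rate called the silent-gene rate below. The 4 Hox genes without counts in total RNA (Hoxa13, Hoxb1, Hoxd1 and Hoxd12) gave 0.514, 0.386, 1.80 and 2.96 counts per kb, less than that rate in each library. The 29 members at 1 CPM or more gave 19.0, 16.2, 12.3 and 11.2 counts per kb. More than 2 times the silent-gene rate was reached by 28 of the 29 in both WT libraries, but by 24 and 21 in miR-379KO A and B. Hoxd11 was the member at 1 CPM that stayed within 2 times the rate in all 4 libraries.

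**Figure D3:**
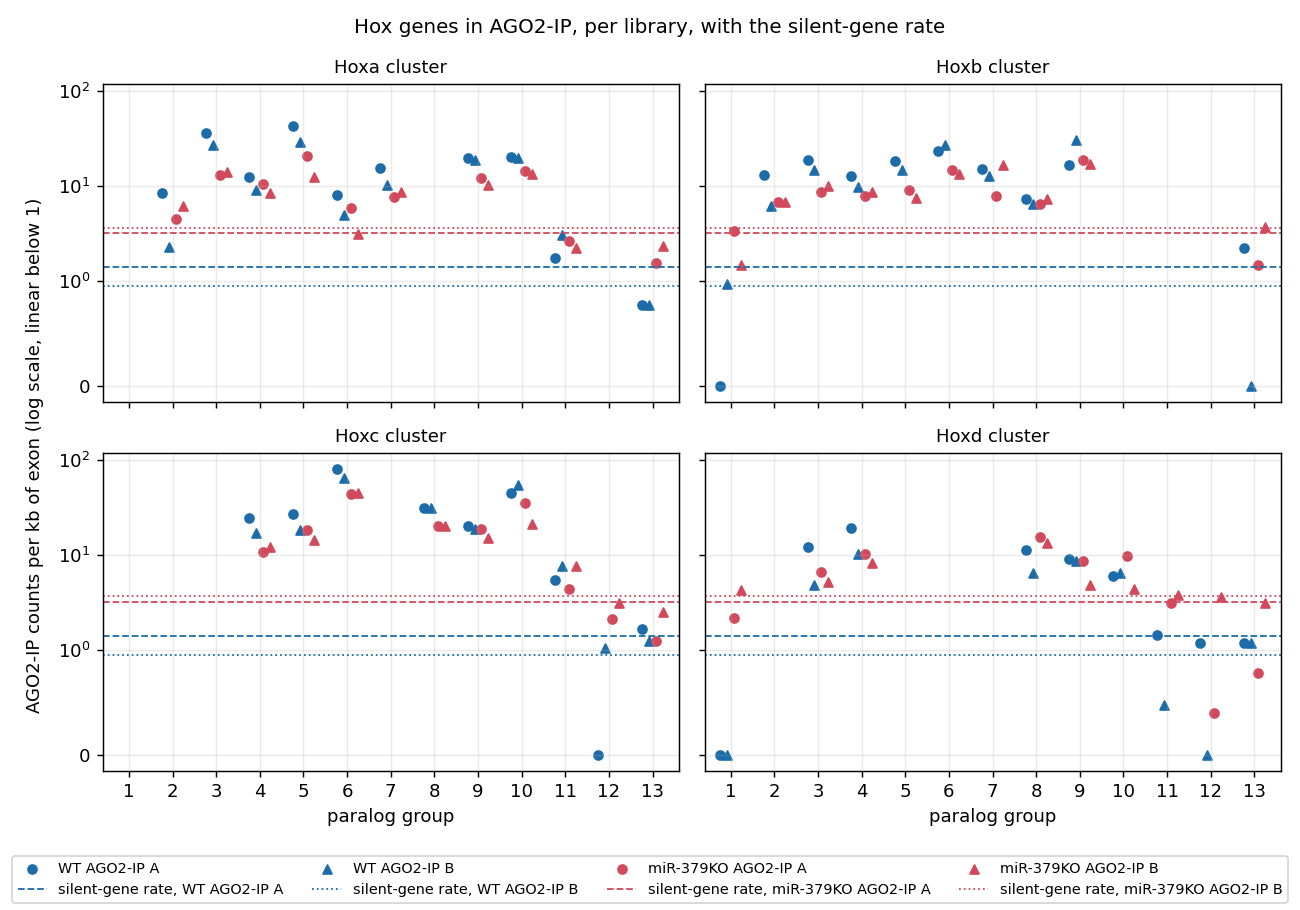
AGO2-IP counts per kb of exon for the Hox genes reported here, by cluster (panels) and paralog group (x axis), on an axis that is logarithmic above 1 and linear below it, with raw counts that are not scaled for depth. Dashed and dotted lines give the silent-gene rate of each library, 1.40 and 0.945 in WT (blue) and 3.19 and 3.63 in miR-379KO (red). Most members of paralog groups 3 to 10 lay above the lines of their libraries, and those of groups 12 and 13 lay at 0 to 1.56 times the rate.

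Between the genotypes, 4 of 27 Hox genes tested were called in AGO2-IP (14.8%), compared to 30.9% of all 13505 genes, 21.4% higher and 9.52% lower. Hoxa3 fell by 1.0 and Hoxa5 fell by 0.91 on the log2 scale. In AGO2-IP in the order WT A, WT B, miR-379KO A and miR-379KO B, Hoxa3 had 92, 68, 33 and 36 counts, where the silent-gene rate gives 3.57, 2.40, 8.10 and 9.23. The log2 fold change was −1.0 ± 0.27 (SE, adjusted p = 0.00766). Hoxa5 had 81, 54, 39 and 23 counts, where that rate gives 2.63, 1.77, 5.98 and 6.81, with a log2 fold change of −0.91 ± 0.29 (SE, adjusted p = 0.0205). Both genes had also the lowest unadjusted p among Hox genes in total RNA, in the same direction. Their genotypes did not overlap in either assay. The call of Hoxa3 was lost without miR-379KO AGO2-IP replicate A (log2 fold change −0.95, adjusted p = 0.0501), and that of Hoxa5 without WT AGO2-IP replicate A (−0.79, adjusted p = 0.0845) or miR-379KO AGO2-IP replicate B (−0.65, adjusted p = 0.270).

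Hoxd8 and Hoxd11 were called higher in the same comparison. Hoxd8 had 24, 14, 33 and 29 counts, where the silent-gene rate gives 3.03, 2.04, 6.88 and 7.84, with a log2 fold change of 0.91 ± 0.35 (SE, adjusted p = 0.0482). Its call was lost when any of the 4 AGO2-IP libraries was left out, with adjusted p from 0.0508 to 0.270. Hoxd11 had 6, 2, 13 and 16 counts and a log2 fold change of 2.03 ± 0.52 (SE, adjusted p = 0.00550). The silent-gene rate gives 5.91, 3.98, 13.4 and 15.3 for its exon length of 4211 bases, so its counts were between 0.503 and 1.05 times those at that rate. Hoxd11 passed the filter on low counts only through miR-379KO, where the silent-gene rate was higher too, so its call is not read as a difference. Its call was lost without WT AGO2-IP replicate B (1.53, adjusted p = 0.0907) or miR-379KO AGO2-IP replicate B (1.81, adjusted p = 0.180). DESeq2 called none of the 4, with adjusted p from 0.102 to 0.321. With the silent-gene rate subtracted from each count, Hoxd11 no longer passed the filter and none of the other 3 was called, with adjusted p from 0.126 to 0.293. Other members with no overlap between the genotypes raised the count to 16 of 27, 13 of them lower in miR-379KO, compared to 68.4% and 32.2% of all genes tested.

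Whether the AGO2-IP difference went beyond the total RNA difference was tested as the interaction of genotype and assay. No Hox gene was called by edgeR, and none of the 17429 genes tested was (0%), although 15.7% of them had an unadjusted p under 0.05. DESeq2 called 120 genes and no Hox gene. The count over all genes depended on the fit, with 1297 called with the GC and length offset and 1108 with a block for each culture, an alternative added after seeing the data in which the total RNA and AGO2-IP libraries of 1 genotype and letter are taken as 1 culture. No Hox gene was called in either. At an unadjusted p under 0.05 there were 3 of 32 Hox genes, Hoxc6 at −0.81 ± 0.34 (SE, adjusted p = 0.277), Hoxc10 at −0.83 ± 0.38 (SE, adjusted p = 0.306) and Hoxd11 at 2.27 ± 0.97 (SE, adjusted p = 0.283) on the log2 scale. For Hoxa3 and Hoxa5 the interaction was −0.39 ± 0.41 (SE, adjusted p = 0.70) and −0.45 ± 0.42 (SE, adjusted p = 0.642). Without WT total RNA replicate A, Hoxc8, which was low in WT B, was called at −1.73 ± 0.35 (SE, adjusted p = 0.0484), compared to −0.73 ± 0.59 (SE, adjusted p = 0.586) with all libraries.

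Set against total RNA, AGO2-IP held relatively more of the transcripts of paralog groups 3 to 6 than of groups 7 to 10, with no steady trend from the anterior to the posterior end. In WT, 12 of 32 Hox genes were at least 2-fold higher in AGO2-IP at an adjusted p under 0.05 (37.5%) and none was lower, where 43.1% of the 17429 genes tested were called, 35.7% as higher and 7.33% as lower. The share of Hox genes called higher was thus near that of all genes, but the called members were unevenly placed. All 12 belonged to paralog groups 3 to 6, of which 13 were tested, and none of the 12 members of groups 7 to 10 was among them. The median log2 fold change was 1.57 for groups 3 to 6 and −0.54 for groups 7 to 10, compared to 0.49 for all genes tested. All genes with a total RNA level in the range of groups 3 to 6 had a median of 0.24, and those in the range of groups 7 to 10 had −0.17. At the ends of the clusters, the 3 tested members of groups 1 and 2 had a median of 0.20 in WT and 0.41 in miR-379KO, and none was called. The 4 tested members of groups 11 to 13 had medians of 0.18 and 0.87, both above those of groups 7 to 10, and only Hoxd11 in miR-379KO was called. This division into ranges was drawn after the values were seen and carries no test.

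**Figure D4:**
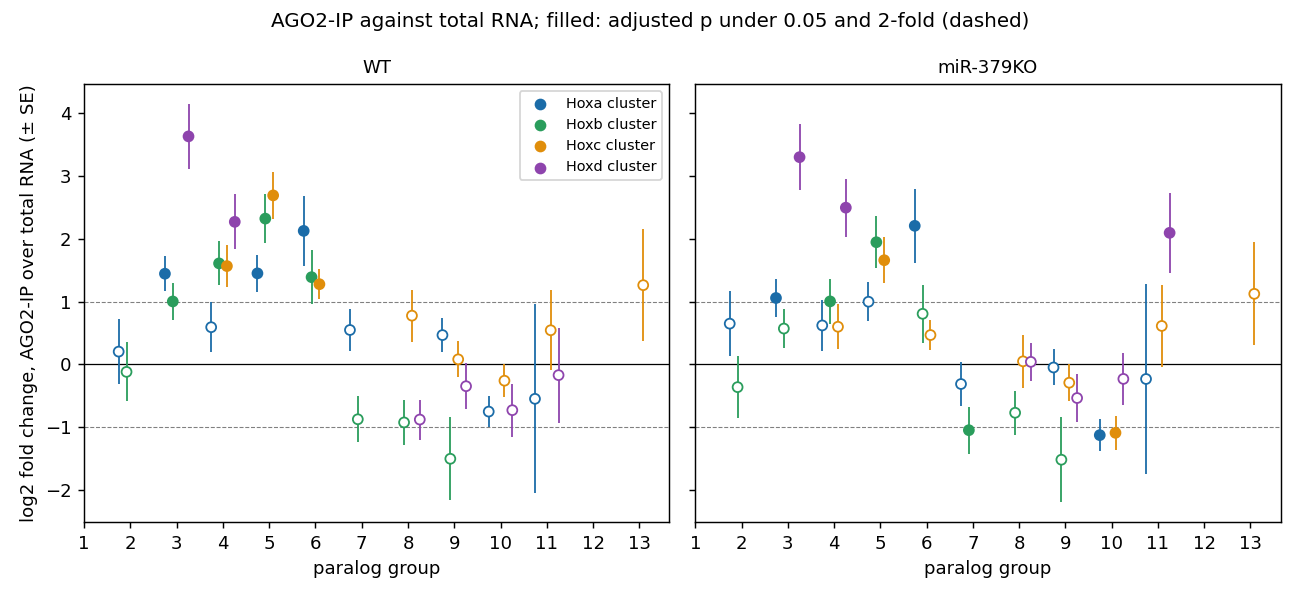
Log2 fold change of AGO2-IP over total RNA with its SE, by paralog group and cluster, in WT (left) and miR-379KO (right). Filled points passed an adjusted p of 0.05 and 2-fold, marked by dashed lines. In both genotypes all 13 members of groups 3 to 6 lay above 0, whereas 8 of 12 in WT and 10 of 12 in miR-379KO of groups 7 to 10 lay below it.

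Hoxd3 had the widest difference in WT. In AGO2-IP it had 35, 14, 19 and 15 counts, where total RNA, sequenced more deeply, had 24, 16, 27 and 14 counts. The log2 fold change was 3.63 ± 0.52 (SE, adjusted p = 4.79e-05) in WT and 3.30 ± 0.53 (SE, adjusted p = 2.92e-05) in miR-379KO. The Hoxd3 counts in miR-379KO A and B were only 2.05 and 1.42 times those at the silent-gene rate, so the miR-379KO value includes much of that rate. Hoxc5 (chromosome 15, 103014008 to 103017429, plus strand) had 74, 50, 50 and 39 counts in AGO2-IP, with 2.69 ± 0.37 (SE, adjusted p = 3.47e-05) in WT and 1.66 ± 0.37 (SE, adjusted p = 0.000657) in miR-379KO. Hoxb5 had 35, 28, 17 and 14 counts, with 2.32 ± 0.39 (SE, adjusted p = 0.000150) and 1.95 ± 0.41 (SE, adjusted p = 0.000446). Hoxd4 had 49, 26, 26 and 21 counts, with 2.27 ± 0.44 (SE, adjusted p = 0.000451) and 2.50 ± 0.46 (SE, adjusted p = 0.000119). These 4 genes were called higher in both genotypes. In miR-379KO A and B the counts were 2.81 and 2.03 times those at the silent-gene rate for Hoxb5. They were 3.19 and 2.26 times for Hoxd4, and 5.75 and 3.94 times for Hoxc5. Also called higher in both genotypes were Hoxa6, with 18, 11, 13 and 7 counts, Hoxa3 and Hoxb4, with 33, 25, 20 and 22 counts, with WT log2 fold changes of 2.13, 1.44 and 1.61 in that order and miR-379KO ones of 2.21, 1.06 and 1.0. The counts of Hoxa6 in miR-379KO A and B were 1.81 and 0.855 times those at the silent-gene rate, so its miR-379KO call rests on counts near that rate. The remaining calls in WT were Hoxc4 (1.57), Hoxa5 (1.45), Hoxb6 (1.39), Hoxc6 (1.28) and Hoxb3 (1.0), with AGO2-IP counts of 49, 34, 21 and 24 for Hoxc4, 33, 38, 21 and 19 for Hoxb6, 129, 104, 70 and 71 for Hoxc6 and 70, 55, 32 and 37 for Hoxb3. Hoxc6 had the most AGO2-IP counts per kb of all Hox genes.

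Among groups 7 to 10, Hoxa10 had 64, 62, 45 and 42 counts in AGO2-IP despite being among the most abundant members in total RNA, with log2 fold changes of −0.75 ± 0.25 (SE, adjusted p = 0.0162) in WT and −1.13 ± 0.25 (SE, adjusted p = 0.000748) in miR-379KO. Hoxb9 had 45, 82, 51 and 46 counts, with −1.51 ± 0.66 (SE, adjusted p = 0.108) and −1.52 ± 0.68 (SE, adjusted p = 0.0904), where the wide spread between the total RNA replicates entered the SE. The test did not pair total RNA and AGO2-IP libraries of the same letter. In WT A and B, Hoxb9 had 55.7 and 158 CPM in total RNA and 4.41 and 9.48 CPM in AGO2-IP. In miR-379KO A and B, Hoxb9 had 99.4 and 65.0 CPM in total RNA and 5.98 and 5.88 CPM in AGO2-IP. Hoxc8 was lower in B than in A in WT total RNA, but not in WT AGO2-IP. Whether pairing would change the calls was not tested. Hoxb8 had 19, 17, 17 and 19 counts, with −0.93 ± 0.35 (SE, adjusted p = 0.0360) and −0.77 ± 0.35 (SE, adjusted p = 0.0602). Hoxa10, Hoxb8 and Hoxd8 had an adjusted p under 0.05 in WT but were lower by less than 2-fold. In miR-379KO, 11 of 32 Hox genes were called, 8 higher and 3 lower, where 61.0% of all genes were called, 41.6% as higher and 19.3% as lower. The 3 lower genes were Hoxa10, Hoxc10 (86, 104, 68 and 40 counts, −1.09 ± 0.28 (SE, adjusted p = 0.00197)) and Hoxb7 (19, 16, 10 and 21 counts, −1.05 ± 0.37 (SE, adjusted p = 0.0183)). Of the 8 higher genes 7 were in groups 3 to 6 and the other was Hoxd11 (2.10 ± 0.64 (SE, adjusted p = 0.00751)), whose AGO2-IP counts were close to or below those at the silent-gene rate. With RLE scaling factors miR-379KO had 9 higher and 0 lower members, and DESeq2 gave 9 higher and 1 lower, so the lower calls depended on the scaling. With the silent-gene rate subtracted, the Hoxd11 difference reversed to −1.77 (adjusted p = 0.381). The remaining members of groups 7 to 10 (Hoxa7, Hoxa9, Hoxc8, Hoxc9, Hoxd9 and Hoxd10) had 8 to 74 counts in each AGO2-IP library and were not called in either genotype. Hoxa2, Hoxb2 and Hoxa4 had 4 to 21 counts and were not called either.

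The ranges were also compared by length, GC content and level. Groups 3 to 6 and 7 to 10 had median exon lengths of 2254 and 2130 bases and a median GC content of 53.5% and 52.2%. Their levels in total RNA differed, with a median of 7.11 CPM for groups 3 to 6 (range 1.08 to 29.6) and 19.7 CPM for groups 7 to 10 (range 10.2 to 94.4), whereas the median AGO2-IP counts per kb were 13.0 and 14.1. Among all genes tested with a total RNA level in the range of groups 3 to 6, 16.1% were called higher in WT AGO2-IP, and among those in the range of groups 7 to 10, 6.06% were higher and 10.4% were lower. The miR-379KO shares were 24.8% higher at the level of groups 3 to 6, and 5.62% higher and 30.5% lower at that of groups 7 to 10, so the 3 of 12 lower members there are no more than genes of that level give. With GC content and exon length entered as an offset, the median of all genes in WT went from 0.49 to −0.38, and the WT calls were split into 6 higher and 6 lower. The higher ones were again all in groups 3 to 6 and the lower ones all in groups 7 to 10, with medians of 0.86 and −1.15. In miR-379KO the same offset gave 4 higher and 11 lower. There the median of all genes shifted to −0.72 from 0.47, and those of the ranges were 0.43 and −1.58. With the silent-gene rate subtracted, WT had medians of 1.59 and −0.54. The medians of miR-379KO were then 1.36 and −0.34, and 8 members of groups 3 to 6 were called higher there, but none of groups 7 to 10 was lower. The libraries of the assays were made in different ways, so that the assay and the library protocol cannot be told apart.

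Seed matches were compared with the AGO2-IP values as a description. Members without an exact match may still hold sites with another letter in the seed, which were not searched. In WT the median log2 fold change of AGO2-IP over total RNA was 0.59 for the 7 tested members with an exact miR-196 match and 0.54 for the 25 without. It was 1.0 for the 3 tested members with a miR-10 match and 0.54 for the 29 without. Among the members with a miR-10 match, Hoxa3 (1.44) and Hoxb3 (1.0) belong to paralog groups 3 to 6, whose median was 1.57. Seed match and paralog range were not separated. Hoxc8, with the 3 miR-196 matches shown above, had 73, 74, 48 and 48 counts in AGO2-IP and a log2 fold change of 0.78 ± 0.41 (SE, adjusted p = 0.141).

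The rows of the Hox cluster microRNAs held few counts. In total RNA, made with a poly(A) kit, Mir196a-1 had 11, 24, 12 and 6 counts, Mir615 had 2, 0, 0 and 0 and Mir10b had 1, 0, 0 and 0 in WT A, WT B, miR-379KO A and miR-379KO B, and Mir10a, Mir196a-2 and Mir196b had 0. In AGO2-IP, Mir196a-1 had 1, 9, 3 and 2, Mir10a had 2, 0, 4 and 6, Mir196a-2 had 0, 5, 1 and 4, Mir615 had 6, 3, 1 and 2, Mir196b had 3, 0, 0 and 0 and Mir10b had 0, 0, 1 and 1 counts. None reached 10 counts in an AGO2-IP library, so nothing can be said from these rows about the mature microRNAs.

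Of 18 other transcripts of the clusters, 5 were tested between the genotypes in total RNA, and none was called. Mira, a noncoding transcript of the Hoxa cluster, had 13.8, 10.1, 11.7 and 13.3 CPM, and Gm53, in the Hoxb cluster, had 3.94, 9.47, 7.65 and 3.99 CPM. Gm53 was higher in WT B and miR-379KO A, as Hoxb9 was. Hotairm1, a noncoding transcript of the Hoxa cluster, had 58, 92, 104 and 108 counts in total RNA. Hotair, a noncoding transcript of the Hoxc cluster, had 4, 2, 5 and 5 counts, and Hottip, at the posterior end of the Hoxa cluster beside the silent Hoxa13, had 0 in every total RNA library. In AGO2-IP between the genotypes 2 of these transcripts were tested and none was called. In WT AGO2-IP against total RNA 2 of 8 tested were higher and none lower, compared to 35.7% and 7.33% of all genes tested. In miR-379KO 3 were higher and 2 lower, compared to 41.6% and 19.3% of all genes tested.

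Genes that act with or upstream of Hox genes were mostly expressed, and none was called between the genotypes in total RNA. The TALE proteins bind DNA together with HOX proteins. All 9 TALE genes reached 1 CPM, with Meis2 at 115, 72.2, 81.3 and 91.6 CPM, and 0 of 9 were called in total RNA. In AGO2-IP, Pbx2 fell by 0.88 on the log2 scale, 1 of 8 tested, where 9.52% of all genes tested were lower. The 27 Polycomb genes, which keep Hox genes silent outside their domain, all reached 1 CPM, with Rbbp4 at 231, 326, 288 and 347 CPM and Rbbp7 at 249, 247, 231 and 286 CPM. None was called in total RNA, and in AGO2-IP 2 of 24 were lower and none higher, compared to 9.52% and 21.4% of all genes tested. The 13 Trithorax and H3K27 demethylase genes, which keep Hox genes active, also reached 1 CPM throughout, with Ash1l at 142, 72.4, 80.8 and 75 CPM and Kmt2a at 137, 64.6, 78.4 and 77.6 CPM. None was called in total RNA and 3 of 13 were lower in AGO2-IP, compared to 9.52% of all genes tested.

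Retinoic acid induces anterior Hox genes in the embryo. Of 18 genes of its pathway, 13 reached 1 CPM, led by the synthetic enzyme Aldh1a2, at 189, 238, 281 and 168 CPM, and by Dhrs3, at 92.9, 107, 94.4 and 41.8 CPM. None of 14 tested was called in total RNA, and 2 of 11 were lower in AGO2-IP, compared to 9.52% of all genes tested. The ParaHox, Cdx and Evx genes, relatives and neighbours of the Hox genes, had 0 counts in every total RNA library (8 of 8). In AGO2-IP 1 of the 8 was tested, Evx2, beside the silent Hoxd13, with 4, 2, 20 and 16 counts. It passed the filter only through miR-379KO, where it was called higher and where the silent-gene rate was higher too, so its call is not read as a difference. For comparison with other positional genes, 9 of 10 transcription factors of the renal stroma and mesangium reached 1 CPM, among them Foxc1, at 205, 86.3, 114 and 100.4 CPM. Of 12 nephron lineage factors 8 did, led by Pax8, at 111, 105, 90.7 and 78.4 CPM, and Wt1, at 93.4, 28.8, 67.6 and 53.2 CPM. Of 18 factors of the head, heart and limbs 2 did, among them Dlx2, at 1.73, 3.67, 2.43 and 2.76 CPM. No gene of these 3 lists was called between the genotypes in total RNA. In AGO2-IP 0 of 9 stromal factors were called and 1 of 8 nephron factors was lower in miR-379KO. Of the head, heart and limb factors 3 of 6 were higher in miR-379KO, where the silent-gene rate was also higher. Of all genes tested in AGO2-IP, 9.52% were lower and 21.4% higher.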

How the data were processed

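Total RNA (stranded poly(A) libraries) and AGO2-IP RNA (crosslinked, sonicated, adapter-ligated without size selection) of WT and miR-379KO MMC were sequenced, 2 replicates per group. The authors used TopHat against mm10 and made counts per RefSeq gene with htseq-count 0.6.0 (reverse-stranded, minimum quality 10), and the deposited values are raw read counts that were not normalised. Rows that name no gene, such as reads without a feature, were left out of library sizes and tests, and gene counts made up 76.2% to 80.2% of all listed reads in total RNA and 11.1% to 26.9% in AGO2-IP.

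Counts were scaled with TMM and filtered with filterByExpr (minimum count 10), and edgeR 4.0.16 (R 4.3.3) quasi-likelihood tests were run over all genes with Benjamini-Hochberg adjustment at 0.05. AGO2-IP against total RNA also required 2-fold and used all 8 libraries, and no block for each culture was run for it. The scripts were tested on simulated data. Replicate ratios used a pseudocount of 1. DESeq2 1.42.0, RLE factors, other filters, a GC and length offset, a replicate block and leaving out each library were alternatives, and subtraction of the silent-gene rate was added after seeing the data. Exon lengths, coordinates and sequences came from RefSeq (GRCm38.p6), whose names matched all 39 Hox genes.

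The members and gene lists were chosen with earlier results of these data known. Values in every sample are named for members at 1 CPM in every total RNA library, members called in any comparison and the 2 members just under 1 CPM, and for lists the 2 genes with the highest mean CPM. Other genes were named after their values were seen, among them the tubular markers, Des, Rgs5, Cald1, Pax2, Pbx2, Evx2 and the low Hox genes. Values of a few genes of these sets are not reported here, though counts and medians over the sets include them.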

Additional observations from a re-analysis of the deposited data

How the results depend on the processing

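The count of Hox genes called between the genotypes in total RNA was 0 under every alternative run, including a block for crossed pairs added after seeing the data. The 4 Hox genes called in AGO2-IP became 0 with DESeq2, 0 with a mean of at least 50 counts, 10 without a filter on low counts, 1 with all 8 libraries in one fit and 0 with the silent-gene rate subtracted, and 1 to 3 when 1 library was left out, with 2 without WT AGO2-IP replicate B and 1 without miR-379KO AGO2-IP replicate B. For the subtraction, fewer counts remained, and for the other settings the cause was not tested. The interaction gave 0 to 1 Hox genes when 1 library was left out, with 1, Hoxc8, without WT total RNA replicate A. For AGO2-IP against total RNA, 10 to 17 Hox genes were called in WT and 8 to 13 in miR-379KO when 1 library was left out. The reversed value was that of Hoxd11 in miR-379KO, −1.77 with the silent-gene rate subtracted. Of 27 calls of single genes, 7 were kept in every alternative that tested the gene, those of Hoxb5, Hoxd3 and Hoxd4 in both genotypes and of Hoxc5 in WT. The count of members at 1 CPM was 29 to 30 in all alternatives.

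Same-lettered replicates did not deviate together between the genotypes, with a correlation of −0.07 over 10763 genes in total RNA and 0.04 over 4971 genes in AGO2-IP. The letters were therefore not taken to pair samples across the genotypes. These correlations compare genotypes within an assay and do not bear on pairing total RNA with AGO2-IP. With the replicate block the counts of Hox genes called were 0 and 4 between the genotypes in total RNA and AGO2-IP, 12 and 11 for AGO2-IP against total RNA in WT and miR-379KO, and 0 for the interaction. Depth limits AGO2-IP, where most Hox genes had under 100 counts per library.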
